A study of Mus musculus with 22 samples.

Results

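The siderophore-binding protein gene Lcn2 and 8 genes of iron handling (Slc40a1, Tfrc, Fth1, Slc11a1, Slc11a2, Hp, Cp and Steap4) were examined in mouse bone marrow-derived macrophages (BMDM). They were chosen by symbol, with earlier results of these data known. They are 9 of the 19505 genes with a symbol on the Clariom S array, and each had 1 probe set. The 22 arrays comprised 5 of macrophages given β-hydroxy-β-methylbutyrate with lipopolysaccharide (HMB+LPS), 5 given lipopolysaccharide alone (LPS), 6 given HMB alone (HMB) and 6 left untreated (Ctrl). All cells came from the marrow of C57/bl6 mice, whose age was not stated, and were matured in medium conditioned by L929 cells, a fibroblast line that secretes the macrophage growth factor M-CSF. LPS, a bacterial cell wall component used to induce M1-like polarization, was given at 10 ng/ml and HMB, a metabolite of leucine, at 1 mM, for 48 h. The groups with LPS carry the replicate numbers 2 to 6, those without it 1 to 6. No source names the animal or culture behind a replicate, and the spread that the p-values rest on may therefore be technical. Values are log2 signals as deposited.

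Macrophages take up iron from transferrin and from old red cells, store it in ferritin and return it to plasma through ferroportin, the only known cellular iron exporter. In infection they hold iron back from microbes, in part by lowering ferroportin, and they secrete lipocalin-2, which captures the siderophores that bacteria use to collect iron. Iron in the cell is sensed by iron regulatory proteins, which bind the transcripts of ferritin, ferroportin and the transferrin receptor and set their translation or stability, so an array sees only part of this control.

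Of the 9 genes, 6 had a promoter in the RefSeq table (GRCm38.p6), and the 250 bases before the start are shown for Lcn2, the gene with the largest differences below, and for Steap4, which held matches to an inflammatory motif. The Lcn2 stretch lies at chr2:32387740-32387989 on the minus strand and that of Steap4 at chr5:7960222-7960471 on the plus strand, both written 5′ to 3′.
Lcn2: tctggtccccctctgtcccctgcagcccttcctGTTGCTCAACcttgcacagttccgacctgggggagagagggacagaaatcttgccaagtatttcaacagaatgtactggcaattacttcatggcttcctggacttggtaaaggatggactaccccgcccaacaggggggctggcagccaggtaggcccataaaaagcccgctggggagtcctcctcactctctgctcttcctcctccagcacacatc
Steap4: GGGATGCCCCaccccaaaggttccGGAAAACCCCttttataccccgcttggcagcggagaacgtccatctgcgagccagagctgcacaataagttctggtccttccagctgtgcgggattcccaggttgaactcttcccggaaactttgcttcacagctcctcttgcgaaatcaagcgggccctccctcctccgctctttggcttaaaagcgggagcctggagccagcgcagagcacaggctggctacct
Capitals in Lcn2 mark a match to the C/EBP motif with up to 1 mismatch, and those in Steap4 mark 2 matches to the NF-kB motif, none of them overlapping another. Both strands were searched. A C/EBP match of this kind stood in 2.31% of the 32817 windows of 300 bases in the table and an NF-kB match in 8.46%. Of the other 4 genes with a promoter, Tfrc held the hypoxia core ACGTG (19.6% of windows) and Cp the AP-1 motif TGANTCA (7.81%). These letters are a description of the windows and not of binding.

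Some arrays stood apart within each group. Along the difference between M0 arrays (Ctrl and HMB) of numbers 5 and 6 and those of numbers 1 to 4, taken over 3235 probe sets that left out the iron genes and probe sets that responded to LPS, 8 arrays lay between 0.77 and 0.99 and the other 14 between −0.36 and 0.30, where 0 stands for numbers 1 to 4 and 1 for numbers 5 and 6. The 8 arrays are called set B and were HMB+LPS 5 and 6, LPS 3 and 6, HMB 5 and 6, and Ctrl 5 and 6. The other 14 are called set A (3, 3, 4 and 4 arrays in the same group order). The 3235 probe sets were picked because they differed between these numbers of the M0 arrays. The M0 arrays were therefore bound to lie near 0 or 1, and only the arrays with LPS were placed by a difference they had not entered. Sets A and B come from the data and are not groups of the study, so levels are described but not tested between them. Treatment differences of the 9 genes are given over all arrays and within each set. In the LPS group the set B arrays also had the lowest Lcn2, Hp and Cp, so the set and the strength of the response cannot be told apart there. As a bar for dim signals, the 95th percentile of the negative control probe sets ran from 9.79 to 11.81 over the arrays. It is strict, since the medians of all tested probe sets lay between 5.73 and 6.01. Positive control probe sets lay 3.65 to 5.26 above negative ones over the arrays, and 4.70 to 5.08 in set B. All 10 macrophage markers matched were above the bar on at least some arrays, though Mertk went down to 10.17, within the range of the bar. In bulk RNA, fewer cells of a type and less RNA per cell cannot be told apart.

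Over all 22 arrays, LPS raised Lcn2, Cp and Hp with and without HMB, past an adjusted p of 0.05 (limma, Benjamini-Hochberg over 22206 probe sets). Slc11a1 passed for HMB+LPS minus HMB only, and no other of the 9 genes passed. For LPS minus Ctrl, 3 of 9 genes were higher and 0 lower, where 1.08% of all probe sets were higher and 0.788% lower. For HMB+LPS minus HMB, 4 of 9 were higher and 0 lower, where 1.99% of all were higher and 1.54% lower. The groups did not overlap in 2 of 9 genes for LPS against Ctrl (2.36% of all probe sets) and in 5 of 9 for HMB+LPS against HMB (4.15%). Both comparisons were made in 1 fit with a shared spread. The median difference of the 9 genes was 0.68 for LPS minus Ctrl and 1.08 for HMB+LPS minus HMB, against 0.00 and −0.01 over all probe sets. Since the 9 genes were chosen with earlier results of these data known, these shares and medians describe them and carry no test of an excess.

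Lcn2 was under the control bar without LPS and bright with it. It measured 18.20, 17.44, 17.82, 17.37 and 17.54 in HMB+LPS (numbers 2 to 6) and 18.10, 15.21, 17.76, 17.39 and 15.24 in LPS. In HMB it ran from 3.10 to 8.93 with a median of 4.04, and in Ctrl from 3.44 to 8.07 with a median of 4.91. Every array with LPS was above the control bar and none without it, so the groups were far apart. The difference was 12.30 ± 1.07 (SE) for HMB+LPS minus HMB (adjusted p = 6.3e-07, limma) and 11.27 ± 1.07 for LPS minus Ctrl (adjusted p = 3.5e-06, limma). Against the control bar, Lcn2 was at least 137-fold higher in HMB+LPS than in HMB and at least 82.8-fold higher in LPS than in Ctrl. Bounds of this kind set the mean of the bright group over the bar of the dim one. Where some arrays of the bright group were under the bar, their values entered that mean, and the bound is then not strict. Within the groups, Lcn2 was higher in the set B arrays of M0 cells, at 8.93 and 8.83 in HMB and 7.94 and 8.07 in Ctrl, and lower in those of LPS, at 15.21 and 15.24. HMB+LPS 5 and 6, at 17.37 and 17.54, lay with set A.

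**Figure D1:**
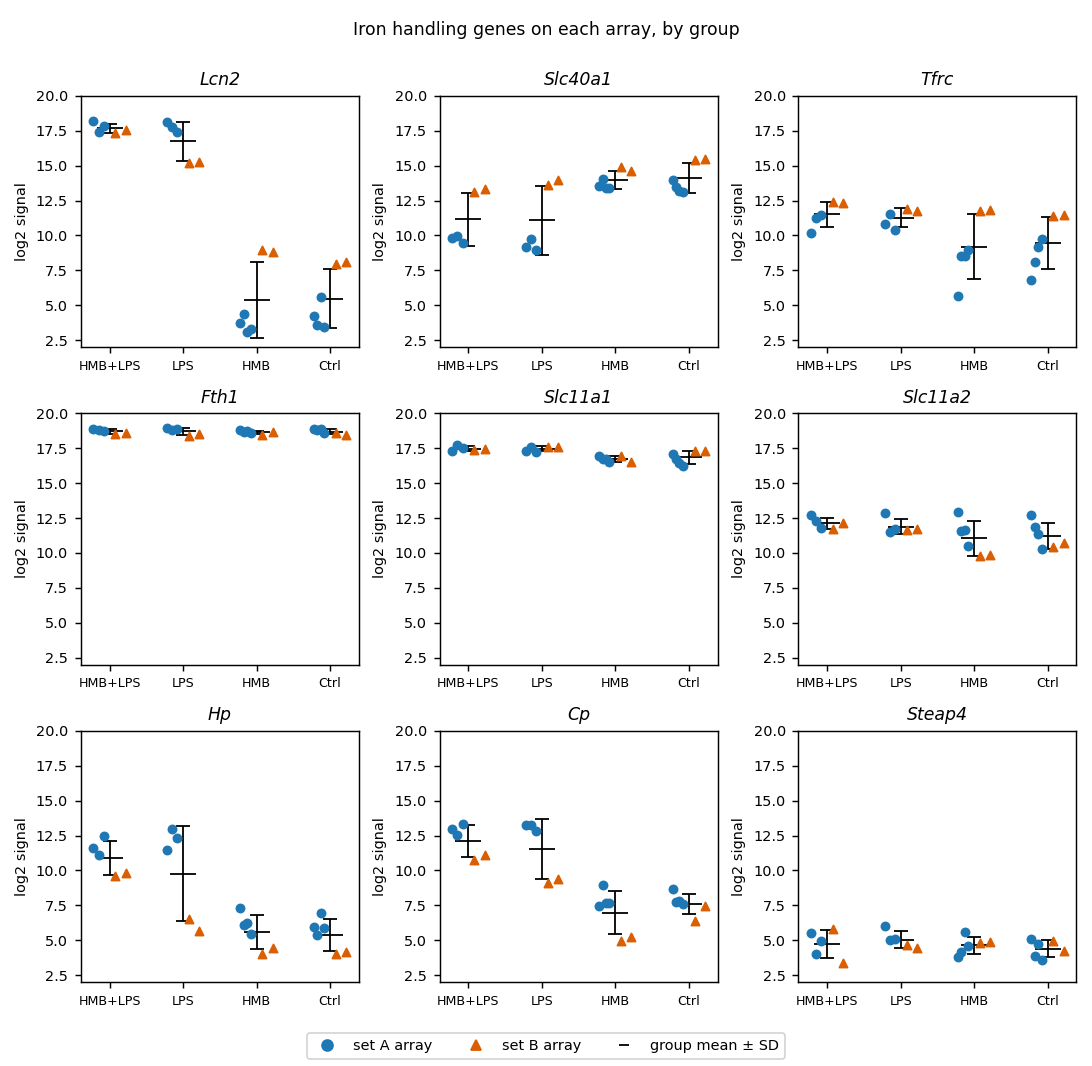
Log2 signal of the 9 genes on each of the 22 arrays, by group, with blue circles for set A, orange triangles for set B, and black bars for the mean ± SD of each group. Lcn2 lies between 15.21 and 18.20 on arrays with LPS and between 3.10 and 8.93 without it, and Slc40a1 with LPS is split between set A (8.95 to 9.98) and set B (13.14 to 13.96).

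Hp and Cp, both known as plasma acute phase proteins of the liver, rose together. Haptoglobin, the Hp product, binds free hemoglobin. Hp measured 11.61, 11.10, 12.45, 9.59 and 9.83 in HMB+LPS and 11.46, 6.53, 12.97, 12.30 and 5.64 in LPS. It ran from 4.02 to 7.34 in HMB (median 5.76) and from 4.01 to 6.97 in Ctrl (median 5.62). The 5 HMB+LPS arrays all lay above the HMB arrays, whereas LPS 3 and LPS 6 lay within the Ctrl range. Hp was 5.32 ± 1.06 higher in HMB+LPS than in HMB (adjusted p = 0.00533, limma) and 4.40 ± 1.06 higher in LPS than in Ctrl (adjusted p = 0.0345, limma). Only 2 of 5 arrays passed the control bar in either LPS group, which bounds HMB+LPS over HMB at 1.27-fold and gives no bound for LPS over Ctrl.

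Ceruloplasmin, the Cp product, is a copper ferroxidase that readies exported iron for transferrin. Cp measured 13.00, 12.51, 13.33, 10.78 and 11.10 in HMB+LPS and 13.25, 9.07, 13.27, 12.81 and 9.36 in LPS. In HMB it ran from 4.97 to 8.93 (median 7.54), and in Ctrl from 6.39 to 8.65 (median 7.67). Neither LPS group overlapped its counterpart, and the lowest values with LPS were those of set B. The difference was 5.17 ± 0.81 for HMB+LPS minus HMB (adjusted p = 0.000531, limma), at least 2.97-fold. For LPS minus Ctrl it was 3.94 ± 0.81 (adjusted p = 0.0118, limma). Only 3 of 5 LPS arrays passed the control bar for Cp, so their mean of 2.27-fold over the bar is not a strict lower bound. The Hp and Cp calls of LPS minus Ctrl rested on single arrays, while Lcn2 passed whichever array was left out. Without LPS 2, LPS 4 or LPS 5 only Lcn2 of the 9 genes passed, with Cp at adjusted p = 0.057, 0.061 and 0.0555 and Hp at 0.123, 0.131 and 0.138 (limma), and Hp was also lost without Ctrl 1, 2, 4, 5 or 6 (0.0561, 0.0755, 0.0597, 0.0585 and 0.0594). Across the 22 arrays, Hp and Cp had a Pearson r of 0.95, a description of arrays that share treatments.

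Slc40a1 encodes ferroportin. Its level was 9.84, 9.98, 9.44, 13.14 and 13.32 in HMB+LPS and 9.13, 13.61, 9.74, 8.95 and 13.96 in LPS. In HMB it was 13.38 to 14.87 (median 13.79), and in Ctrl 13.11 to 15.49 (median 13.72). HMB+LPS lay wholly below HMB, while LPS overlapped Ctrl through its set B arrays. Over all arrays the difference was −2.83 ± 0.90 for HMB+LPS minus HMB (adjusted p = 0.0862, limma) and −3.02 ± 0.90 for LPS minus Ctrl (adjusted p = 0.0883), and neither passed. Within each set both passed. In set A it fell by 3.84 for HMB+LPS minus HMB (adjusted p = 5.31e-07) and by 4.15 for LPS minus Ctrl (adjusted p = 2.37e-07), to arrays that were all under the control bar, at least 5.59-fold and at least 4.32-fold lower. In set B, where all arrays were above the bar, it fell by 1.5 (adjusted p = 0.0108) and by 1.66 (adjusted p = 0.0304). That set had 2 arrays a group, and leaving out any of its 8 arrays took the LPS minus Ctrl call (adjusted p from 0.071 to 0.211), while leaving out HMB 5, HMB 6, HMB+LPS 5 or HMB+LPS 6 took the other (0.0811, 0.055, 0.0622 and 0.0581). With both sets in 1 fit of 8 means, LPS minus Ctrl in set B was at adjusted p = 0.0825. Whether the difference varied between sets was not tested. Over all arrays it also passed for LPS minus Ctrl without LPS 3 (−3.65, adjusted p = 0.0244) or without LPS 6 (−3.74, adjusted p = 0.0174), and for HMB+LPS minus HMB without HMB+LPS 5 (−3.33, adjusted p = 0.0426) or without HMB+LPS 6 (−3.38, adjusted p = 0.0389).

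Tfrc, the transferrin receptor through which most cells take up iron, had a wide spread in cells without LPS. It measured 10.19, 11.23, 11.47, 12.36 and 12.32 in HMB+LPS and 10.79, 11.92, 11.53, 10.39 and 11.75 in LPS, and ran from 5.63 to 11.81 in HMB (median 8.74) and from 6.81 to 11.48 in Ctrl (median 9.47). The highest M0 values were those of set B, at 11.76 and 11.81 in HMB and 11.40 and 11.48 in Ctrl. HMB 1 and Ctrl 1 had the lowest values of their groups, 5.63 and 6.81. Their separation of positive from negative control probe sets was also the lowest of their groups, at 3.78 and 3.96. Over all arrays Tfrc differed by 2.31 ± 0.91 for HMB+LPS minus HMB (adjusted p = 0.189, limma) and 1.82 ± 0.91 for LPS minus Ctrl (adjusted p = 0.369). In set A it rose for HMB+LPS minus HMB by 3.05 (adjusted p = 0.017), a call lost without HMB+LPS 3 (adjusted p = 0.0727) or HMB+LPS 4 (adjusted p = 0.0717), and was at 2.44 for LPS minus Ctrl (adjusted p = 0.0541). Tfrc was under the control bar on the 4 HMB and 4 Ctrl arrays of set A, which bounds these differences at 1.20-fold each, with 2 of 3 HMB+LPS and 1 of 3 LPS arrays above it. In set B the differences were 0.55 and 0.40 (adjusted p = 0.121 and 0.467).

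Slc11a1 encodes NRAMP1, a metal pump of the phagosome membrane, of which C57BL/6 mice carry a natural loss-of-function allele. Its transcript was bright on every array, at 17.29, 17.74, 17.55, 17.38 and 17.42 in HMB+LPS and 17.32, 17.62, 17.58, 17.23 and 17.57 in LPS, with 16.50 to 16.97 in HMB (median 16.72) and 16.24 to 17.29 in Ctrl (median 16.91). HMB+LPS lay above HMB without overlap, by 0.74 ± 0.20 (adjusted p = 0.0429, limma), a fold of 1.67. This call was lost on leaving out any of 10 of the 22 arrays, 1 at a time, 5 of them HMB+LPS, 4 HMB and 1 Ctrl (adjusted p up to 0.133), and within either set alone (adjusted p = 0.0663 in set A and 0.123 in set B). LPS minus Ctrl was 0.62 ± 0.20 (adjusted p = 0.126), and Ctrl 5 and 6, at 17.29 and 17.28, overlapped LPS. The LPS effects with and without HMB differed by 0.12 ± 0.29 (95% confidence interval −0.47 to 0.71), which did not pass.

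Slc11a2 encodes DMT1, which moves iron out of endosomes and into gut cells. It measured 12.74, 12.25, 11.81, 11.73 and 12.11 in HMB+LPS and 12.87, 11.63, 11.54, 11.70 and 11.70 in LPS, against 9.79 to 12.96 in HMB (median 11.02) and 10.26 to 12.69 in Ctrl (median 11.01). The groups overlapped, and LPS 2, HMB+LPS 2, HMB 1 and Ctrl 1 were the highest of their groups. Each also had the lowest separation of positive from negative control probe sets in its group, at 3.65, 3.82, 3.78 and 3.96. Differences were 1.08 ± 0.50 for HMB+LPS minus HMB (adjusted p = 0.293, limma) and 0.68 ± 0.50 for LPS minus Ctrl (adjusted p = 0.59). In set B, Slc11a2 rose for HMB+LPS minus HMB by 2.11 (adjusted p = 0.00285), at 11.73 and 12.11 in HMB+LPS, against 9.79 and 9.82 in HMB. Both HMB arrays were under the control bar, which bounds the rise at 3.06-fold. It was at 1.11 for LPS minus Ctrl (adjusted p = 0.0921). With both sets in 1 fit of 8 means, the first of these did not pass (adjusted p = 0.227).

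Storage and reduction genes gave no call. Fth1, the ferritin heavy chain, stayed between 18.41 and 18.93 on all 22 arrays, at the upper end of a scale whose highest tested value per array was 18.8 to 19.3, which left little room on it for a rise. Its differences were 0.05 ± 0.16 for HMB+LPS minus HMB (adjusted p = 0.945, limma) and 0.01 ± 0.16 for LPS minus Ctrl (adjusted p = 0.993), and both had the opposite sign in set B and after quantile normalization. Ftl1, the ferritin light chain, was at −0.02 ± 0.23 and −0.12 ± 0.23 (adjusted p = 0.987 and 0.88). Steap4, an endosomal metalloreductase known from fat and inflamed tissue, was under the control bar on all 22 arrays, between 3.35 and 6.0, and its differences of 0.08 ± 0.41 and 0.64 ± 0.41 (adjusted p = 0.967 and 0.528) carry no level above background.

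Within the sets the counts differed from those over all arrays. In set A, LPS minus Ctrl called 3 higher and 1 lower (4.22% and 6.33% of all probe sets). They were Lcn2 at 13.55 (at least 138-fold), Hp at 6.21 (3.05-fold over the bar), Cp at 5.16 (at least 5.55-fold) and Slc40a1 as above. HMB+LPS minus HMB called 4 higher and 1 lower (4.46% and 5.82%). They were Lcn2 at 14.20 (at least 139-fold), Hp at 5.44 (2.03-fold over the bar), Cp at 5.03 (at least 4.74-fold) and Tfrc and Slc40a1 as above. For Hp only 2 of 3 arrays with LPS passed the bar in each comparison, so its folds are not strict lower bounds. In set B, LPS minus Ctrl called Lcn2 higher, at 7.22 (adjusted p = 4.6e-05, limma) and at least 42.1-fold, and Slc40a1 lower, 2 genes against 3 over all arrays (0.509% and 0.045%). Hp and Cp, at 2.0 and 2.29, did not pass there (adjusted p = 0.0651 and 0.0645). HMB+LPS minus HMB called Lcn2 (8.58, at least 141-fold), Cp (5.86, at least 1.55-fold), Hp (5.48) and Slc11a2 higher and Slc40a1 lower (2.89% and 2.72%). Hp was under the control bar on all 8 arrays of set B, so its differences there carry no bound.

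**Figure D2:**
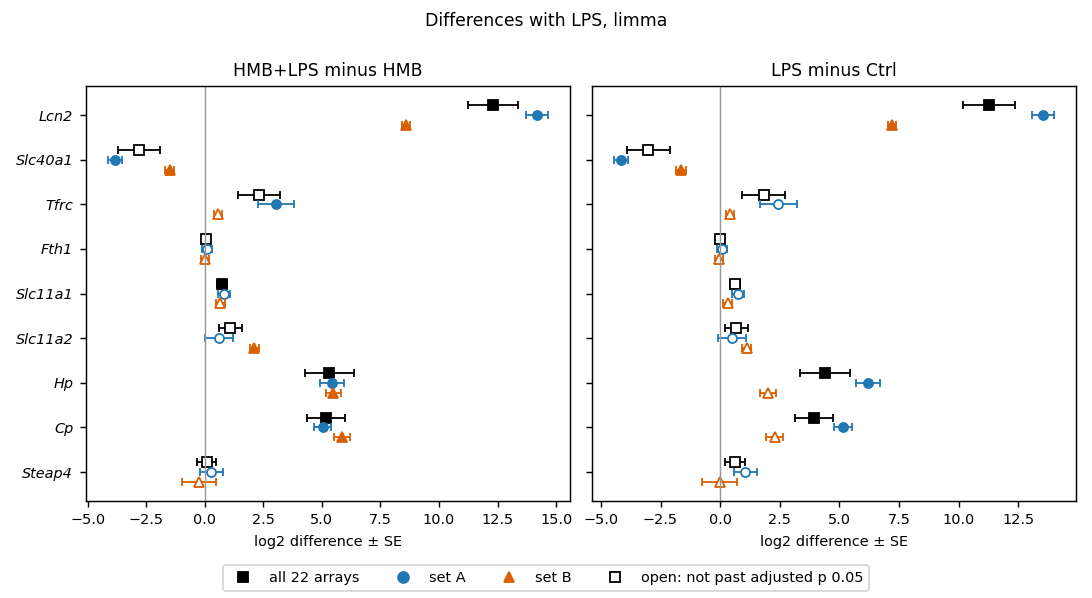
Difference with LPS (log2, ± SE) of the 9 genes, in HMB (left) and in Ctrl cells (right), over all 22 arrays (black squares), set A (blue circles) and set B (orange triangles), filled where the adjusted p was under 0.05. Lcn2 is filled in all 6 fits, and Slc40a1 only within the sets.

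HMB gave no call among the 9 genes over all arrays, with or without LPS. For HMB+LPS minus LPS 0% of probe sets passed limma, for HMB minus Ctrl 0% and for the difference between both HMB effects 0%, while 686, 410 and 465 probe sets had an unadjusted p under 0.05, none of them one of the 9 genes. The methods' t-test also called 0 probe sets for HMB+LPS minus LPS and for HMB minus Ctrl. For HMB+LPS minus LPS, Lcn2 was at 0.93 (95% confidence interval −1.39 to 3.26), Hp at 1.14 (−1.17 to 3.44), Cp at 0.59 (−1.16 to 2.34) and Steap4 at −0.32 (−1.22 to 0.58), and the other 5 genes lay between these. For HMB minus Ctrl, the 9 genes lay between −0.64 for Cp (−2.24 to 0.96) and 0.23 for Steap4 (−0.58 to 1.05). The difference between both effects ran from −0.55 for Steap4 (−1.77 to 0.66) to 1.23 for Cp (−1.14 to 3.60). These intervals leave room for changes of several fold in Lcn2, Hp and Cp.

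In set A, HMB again gave no call of any probe set, at 0% for HMB+LPS minus LPS, for HMB minus Ctrl and for their difference. Lcn2 was at 0.07 for HMB+LPS minus LPS there (−0.99 to 1.13), Cp at −0.16 (−1.02 to 0.69) and Hp at −0.52 (−1.67 to 0.62). In set B, 3 of the 9 genes were higher in HMB+LPS than in LPS and 0 lower, where 2.2% of all probe sets were higher and 2.49% lower. Lcn2 was at 17.37 and 17.54 in HMB+LPS, against 15.21 and 15.24 in LPS, a difference of 2.23 ± 0.17 (adjusted p = 0.00794, limma) or 4.69-fold. Hp, under the control bar on all 4 of these arrays, was at 9.59 and 9.83, against 6.53 and 5.64, a difference of 3.62 ± 0.32 (adjusted p = 0.0107). Cp was at 10.78 and 11.10, against 9.07 and 9.36, a difference of 1.72 ± 0.36 (adjusted p = 0.0493). Both LPS arrays were under the control bar for Cp, which makes it at least 2.04-fold higher in HMB+LPS. These calls came from 2 arrays a group, numbers 5 and 6 against 3 and 6. Without LPS 6, HMB+LPS 5 or HMB+LPS 6 none of the 3 passed, without LPS 3 only Hp did, and without HMB 5 or HMB 6 Cp did not (adjusted p = 0.0904 each). With 1 fit of 8 means, whose spread is shared with set A, only Hp passed, and Lcn2 was at adjusted p = 0.0816 and Cp at 0.151.

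Without LPS, HMB gave none of the 9 genes a call in set B (0.221% of all probe sets higher, 0.261% lower). Lcn2 was at 8.93 and 8.83 in HMB, against 7.94 and 8.07 in Ctrl, a difference of 0.87 ± 0.17 (adjusted p = 0.0889, limma) below the control bar. Cp was at 4.97 and 5.20 in HMB, against 6.39 and 7.46 in Ctrl, at −1.84 ± 0.36 (adjusted p = 0.0927), all under the bar. The difference between both HMB effects in set B passed for 0.0045% of probe sets and for none of the 9 genes, with Cp at 3.57 ± 0.51 (adjusted p = 0.0893), Hp at 3.48 ± 0.45 (adjusted p = 0.075) and Lcn2 at 1.36 ± 0.24 (adjusted p = 0.167).

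**Figure D3:**
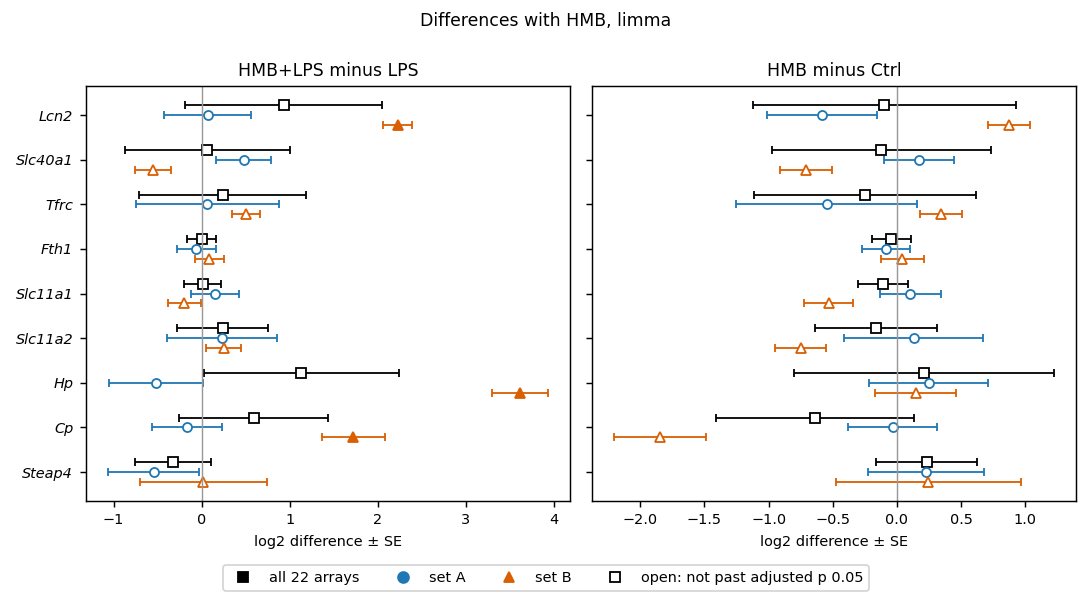
Difference with HMB (log2, ± SE) of the 9 genes, in LPS-treated (left) and M0 cells (right), over all 22 arrays (black squares), set A (blue circles) and set B (orange triangles), filled where the adjusted p was under 0.05. Only Lcn2, Hp and Cp in set B with LPS are filled, from 2 arrays a group.

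Lcn2 and Hp are also products of neutrophils, whose precursors a marrow culture can hold. Of 17 matched neutrophil and granulocyte precursor genes, 14 were under the control bar on every array, among them the granule genes Ltf, Camp, Ngp, Mpo and Elane. The summed level of the list was 14.57 to 17.34 in HMB+LPS, 11.48 to 17.18 in LPS, 10.84 to 12.06 in HMB and 10.94 to 11.78 in Ctrl. Signals were summed before the log2, so the brightest gene dominated. Mmp8 alone was at 14.45 to 17.32 in HMB+LPS and 10.19 to 17.14 in LPS. The mean log2 level of the 17 genes was 5.10 to 5.15, 4.44 to 5.25, 4.10 to 4.51 and 3.78 to 4.30 in the same group order. Mmp8, a collagenase that activated macrophages also make, rose by 8.85 for HMB+LPS minus HMB and by 7.87 for LPS minus Ctrl, and S100a8, a calcium-binding alarmin, by 5.39 and 4.18 (adjusted p from 7.75e-05 to 0.00275, limma). In set A, Ltf also passed for LPS minus Ctrl, at 1.03 (adjusted p = 0.0186) under the bar. In set B the sum was 14.57 and 14.90 in HMB+LPS, against 11.48 and 11.70 in LPS, and 3 of 17 genes were higher there, Mmp8 (4.24), S100a8 (3.01) and Chil3 (1.46). Of these, S100a8 and Chil3 were under the bar on all arrays compared. The fibroblast and stromal sum was 13.05 and 13.47 in these HMB+LPS arrays, against 12.07 and 12.09 in LPS, with 3 of 10 genes higher, Col1a2 (1.65), Acta2 (1.15) and Tagln (1.67). Of 7 hepatocyte markers, Fga (1.48) and Fgb (0.87) were higher in the same comparison, though all 7 were under the bar on every array. With LPS, the fibroblast list moved in set A, where 2 of 10 genes were higher and 6 lower in both comparisons. Among them were Dcn, at 8.33 for HMB+LPS minus HMB and 8.4 for LPS minus Ctrl, and Acta2, at −4.11 and −4.13. In set B and over all arrays 0 of the 10 passed with LPS. The part of these cell markers in the differences of the 9 genes was not tested. Hepatocyte sums were 7.06 to 7.29 in HMB+LPS, 6.63 to 7.53 in LPS, 6.45 to 7.45 in HMB and 6.69 to 7.0 in Ctrl. Of 10 macrophage markers, only Itgam passed over all arrays, with a rise of 1.25 for HMB+LPS minus HMB (adjusted p = 0.00534), while the list's median there was −0.19. In set A, C1qa, C1qb, C1qc and Mertk fell in both LPS comparisons, by 1.77 to 3.35 for HMB+LPS minus HMB. In set B 4 of 10 were higher and 0 lower in that comparison, Fcgr1 (1.20), Adgre1 (1.12), Itgam (1.11) and Mertk (0.91). Mertk thus moved in opposite directions in the sets. Itgax, an integrin of dendritic cells and some macrophages, fell by 3.14 over all arrays for HMB+LPS minus HMB (adjusted p = 0.0158).

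Other iron genes were read from 6 lists, of which 65 of 68 genes were matched. Where a pair of values follows, the first is HMB+LPS minus HMB and the second LPS minus Ctrl. Values are over all arrays unless a set is named. In set B, LPS minus Ctrl called 0 genes of any of the 6 lists outside the 9. Of 10 heme salvage genes outside the 9, 2 rose and 0 fell for LPS minus Ctrl, and 3 rose and 2 fell for HMB+LPS minus HMB. Hmox1, the heme oxygenase that frees iron from heme, was at 18.30 ± 0.38 in HMB+LPS, 18.24 ± 0.45 in LPS, 16.39 ± 1.16 in HMB and 16.35 ± 1.03 in Ctrl (SD, n = 5, 5, 6 and 6). It rose by 1.91 ± 0.49 and 1.89 ± 0.49 with LPS (adjusted p = 0.0291 and 0.047, limma). In set A the rise was 2.76 and 2.81 (adjusted p = 0.000445 and 0.000385), and in set B the difference was 0.34 and 0.20 (adjusted p = 0.382 and 0.791). Spic, a factor of red pulp macrophages that recycle iron, rose by 4.39 ± 0.54 and 2.88 ± 0.54 (adjusted p = 5.06e-05 and 0.00666), under the control bar on all arrays. It passed in set A and, in set B, for HMB+LPS minus HMB (4.25) but not for LPS minus Ctrl (1.95, adjusted p = 0.161). For HMB+LPS minus HMB, the heme transporter gene Slc48a1, named after its value was seen, rose by 1.5 (adjusted p = 0.0469), Bach1, a repressor of Hmox1, fell by 1.03 (adjusted p = 0.0254), and Cd163, the haptoglobin-hemoglobin receptor, fell by 0.88 (adjusted p = 0.0381) under the bar. In set B, Slc48a1 passed in that comparison (0.74, adjusted p = 0.0472) and Bach1 (−0.35, adjusted p = 0.373) and Cd163 (−0.17, adjusted p = 0.771) did not.

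Among uptake genes outside the 9, 1 of 10 fell in each comparison and 0 rose over all arrays, whereas in set A 3 fell and 1 rose in each. The gene called over all arrays was Trf, transferrin itself, at 13.12 ± 1.05 in HMB+LPS, 12.77 ± 0.49 in LPS, 15.39 ± 0.26 in HMB and 15.03 ± 0.62 in Ctrl (SD, n = 5, 5, 6 and 6), a fall of 2.27 ± 0.38 and 2.26 ± 0.38 with LPS (adjusted p = 0.000942 and 0.00275, limma). It was at −3.05 and −2.96 in set A and at −1.08 and −1.02 in set B (adjusted p = 0.0175 and 0.0764 in set B). Within set B, from 2 arrays a group, Trf was also higher in HMB+LPS than in LPS, by 1.01 (adjusted p = 0.0318, limma). The others called in set A, named after their values were seen, were the zinc and iron importer genes Slc39a14 (higher) and Slc39a8 (lower) and Steap3, an endosomal ferrireductase (−3.21 and −3.36). The 7 storage and export genes outside the 9 and the 4 siderophore and lactoferrin genes beside Lcn2 had 0 calls over all arrays and in set B. In set A, Ncoa4, which delivers ferritin for breakdown, fell by 0.92 and 1.19, and Pcbp2, an iron chaperone, fell by 0.77 and 0.90. Of 12 iron regulators, 1 rose and 1 fell in each comparison, against 4 and 2 in set A. Hif1a, the oxygen-sensing factor, rose by 1.5 ± 0.30 and 1.30 ± 0.30 (adjusted p = 0.00583 and 0.0282), and its relative Epas1 fell by 2.04 ± 0.41 and 2.95 ± 0.41 (adjusted p = 0.0051 and 0.000337), under the control bar. In set B Hif1a was at 0.75 and 0.31 (adjusted p = 0.0479 and 0.591) and Epas1 at −1.30 and −1.89 (adjusted p = 0.121 and 0.13). Aco1 and Ireb2, which encode the iron regulatory proteins and were named outside the rule for naming genes, were at −0.03 and 0.01 for HMB+LPS minus HMB. The other regulators called in set A, named after their values were seen, were Fbxl5 (2.39 and 2.10), Hamp (3.31 and 2.93), Hamp2 (1.74 and 2.31) and Hfe (−1.40 and −1.94). Of these, Hamp and Hamp2 were under the control bar. Of 13 genes of mitochondrial iron and heme synthesis, Alas1, the first enzyme of heme synthesis, rose by 1.92 ± 0.33 and 1.67 ± 0.33 (adjusted p = 0.00112 and 0.00804), and Slc25a37, the mitochondrial iron importer, rose for HMB+LPS minus HMB by 1.93 (adjusted p = 0.0242). In set B both passed for HMB+LPS minus HMB, at 1.42 and 1.59, and neither for LPS minus Ctrl (adjusted p = 0.299 for Alas1 and 0.495 for Slc25a37). For HMB+LPS minus LPS in set B, Iscu was higher (0.97, adjusted p = 0.0435, limma) and Ppox lower (−1.24, adjusted p = 0.0439). Both were named after their values were seen.

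**Figure D4:**
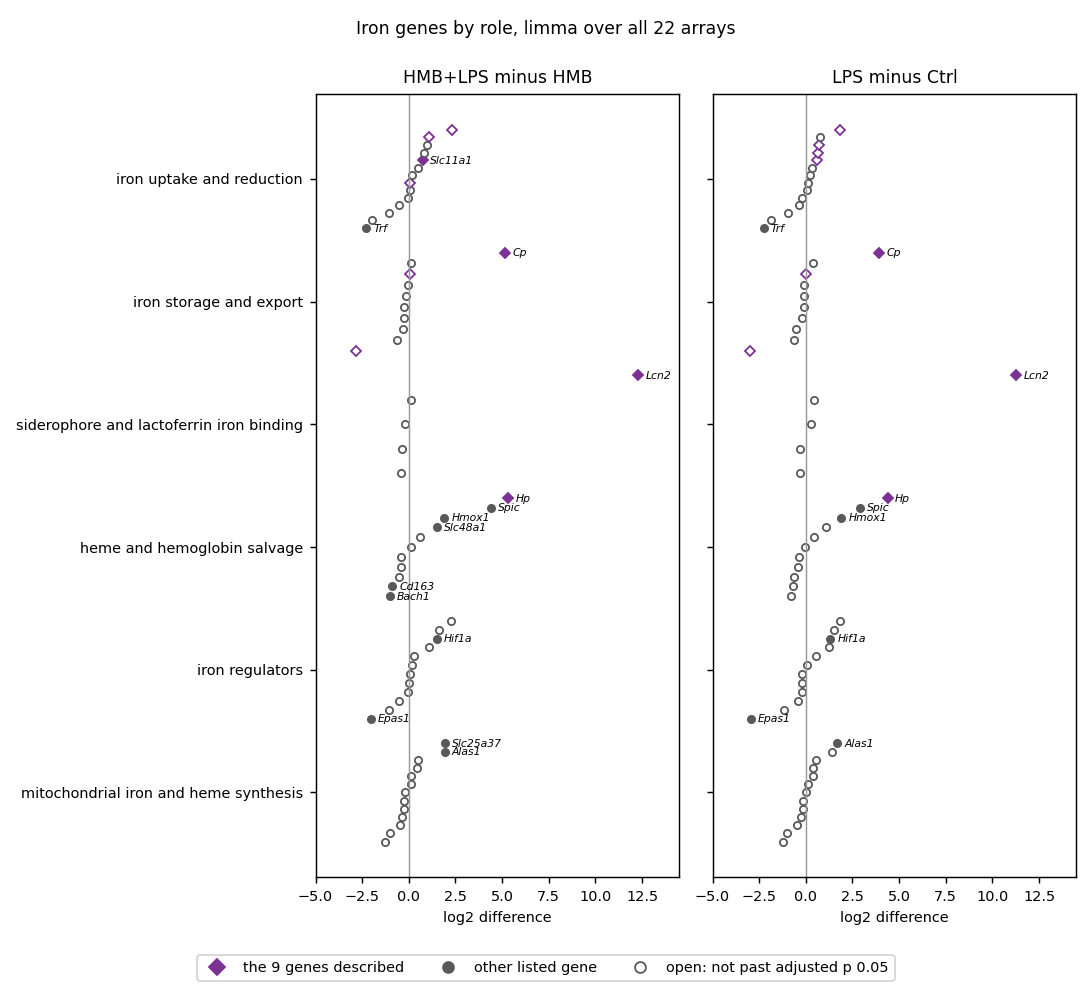
Log2 difference with LPS of each matched gene of the 6 iron lists, in HMB (left) and Ctrl cells (right), over all 22 arrays, with purple diamonds for the 9 genes and grey circles for the others, filled and named where the adjusted p was under 0.05. Lcn2 lies farthest right, at 12.30 and 11.27, and most points lie near 0.

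By Pearson r over the 22 arrays, the genes most alike in pattern to Lcn2 were Saa3 (0.982), Ccl5 (0.978), Acod1 (0.971), Il1rl2 (0.963) and Mmp14 (0.961). Those most alike to Slc40a1 were Aldh9a1 (0.986), Pdlim4 (0.973), Rab3il1 (0.968), Ube2c (0.966) and Smc1a (0.964). The arrays share treatments and sets, so these values describe them and carry no test. Over the 14 arrays of set A alone both lists held other genes, led by Tspan3 for Lcn2 (0.994) and Mtss1 for Slc40a1 (0.991).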

How the data were processed

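Expression was measured on 22 Clariom S arrays of BMDM. The authors deposited log2 values per probe set, 28846 in all, of which 6640 were controls; how background was corrected, how arrays were normalized and with which software is not given in the sources used here. The other 22206 probe sets were tested as deposited, 19572 of them with 1 gene symbol and 2634 unnamed here. Differences were fitted in limma 3.58.1 (R 4.3.3, two-sided) with 4 group means over all 22 arrays, Benjamini-Hochberg adjustment over 22206 probe sets and a threshold of 0.05. The fit was tested on simulated data that held no difference between sets A and B, so its behaviour with such sets was not tested. Arrays give no read depth, and their number limits the precision. Sets A and B were split at a position of 0.5, with 4271 probe sets differing between M0 numbers before LPS-responsive ones were left out. Bounds took, per array, the higher of the dim gene's value and the 95th percentile of 5222 negative controls. The 9 genes and the lists were chosen with earlier results of these data known. Named besides them were, for each LPS comparison, up to 4 called genes of each iron list by adjusted p, Hmox1 and Ftl1, called marker genes, and the 5 genes most like Lcn2 and Slc40a1. Deviations of same-numbered HMB and Ctrl arrays from their group means correlated in each of 6 pairs (r from 0.183 to 0.627). Such arrays always lay in the same set, so these values include the split into sets and cannot show pairing by number. For HMB+LPS and LPS, r was 0.615, 0.545 and 0.599 for numbers 2, 4 and 6. It was −0.515 and −0.516 for numbers 3 and 5, whose arrays lay in different sets. Alternatives were other normalizations, filters, sets, blocks and tests, and leaving out each array; leaving out arrays within the sets was added after seeing the data. The design text lists 5 arrays per group and the labels 6 for Ctrl and HMB. Protein sequences were not used here.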

Additional observations from a re-analysis of the deposited data

Results flagged for a closer look

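Slc11a2 in LPS 2, at 12.87, lay apart from the other LPS arrays, of which the nearest was at 11.70 and the lowest at 11.54. Of 36 gene and group pairs examined, this was the only one so marked, and chance marks about 1 in 20.

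In set B the HMB effect had opposite signs with and without LPS for 2 genes, with no overlap between the arrays compared. Cp differed by 3.57, from 1.72 for HMB+LPS minus LPS and −1.84 for HMB minus Ctrl (adjusted p = 0.0893, limma, within set B), and of these arrays only HMB+LPS 5 and 6 were above the control bar for Cp. Slc11a2 differed by 1.00, from 0.25 and −0.75 (adjusted p = 0.331), with HMB 5 and 6 under the bar. Neither passed, and each value rests on 2 arrays a group.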

How the results depend on the processing

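Apart from leaving out arrays, 267 alternative values of single genes were computed, of which 225 kept direction and side of the threshold, 13 lost the call, 19 gained one and 10 changed sign; the cause was not tested. For LPS minus Ctrl, the count of the 9 genes called was 1 by the methods' t-test (unpaired, after adjustment, with 9 probe sets called in all against 414) and 5 with the replicate number as a block, which added Slc40a1 (adjusted p = 0.0352) and Slc11a2 (0.0312). With this replicate block the counts for HMB+LPS minus HMB, HMB minus Ctrl and HMB+LPS minus LPS were 6, 0 and 0. Arrays of the same number are not known to be pairs, so the block is only a hint in each comparison. For HMB+LPS minus LPS, 3 genes were called in set B. With 1 fit of 8 means, set B counts were 1 for LPS minus Ctrl and 1 for HMB+LPS minus LPS, where 107 probe sets were called in all against 1043. With probe sets above the negative controls on 5 or more arrays (6957 kept, 7 of 9 genes), Slc40a1 and Slc11a1 passed for LPS minus Ctrl (adjusted p = 0.0495 and 0.0491). With the set as a block, Slc40a1 passed (0.0001 for LPS minus Ctrl). Using only the groups compared, Hp for LPS minus Ctrl did not pass (0.134) and Slc40a1 for HMB+LPS minus HMB did (0.0487). Total calls for LPS minus Ctrl were 117 with those groups only, 670 with the replicate block, 1482 with the set as a block, 2341 in set A and 123 in set B; for HMB+LPS minus HMB they were 785, against 423 by the methods' t-test, 1982 with the set as a block, 2283 in set A and 1245 in set B.

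Signs changed for Fth1 (LPS minus Ctrl −0.0072 after quantile normalization and −0.047 in set B; HMB+LPS minus HMB −0.0163 and −0.00185), Steap4 in set B (LPS minus Ctrl −0.0215, HMB+LPS minus HMB −0.246, HMB+LPS minus LPS 0.0181), and in set A for Hp (−0.523) and Cp (−0.165) in HMB+LPS minus LPS and for Cp in the difference between both HMB effects (−0.131).

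Leaving out 1 array at a time gave 1 to 4 genes called for LPS minus Ctrl and 3 to 4 for HMB+LPS minus HMB. Within set B, where the group that lost an array was assumed to vary like the others, it gave 1 to 1 for LPS minus Ctrl and 0 to 3 for HMB+LPS minus LPS. Ranges that crossed 0 were −0.0508 to 0.0800 for Fth1 (LPS minus Ctrl), −0.189 to 0.425 for Steap4 (HMB+LPS minus HMB), and −0.0299 to 1.02 for Cp and −0.591 to 0.0222 for Steap4 (HMB+LPS minus LPS). Each gene had 1 probe set, so no other could be tried.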
